A study of Mus musculus with 6 samples.

Results

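The set covered 9 genes of the contractile actin cytoskeleton out of 55291 in the deposited tables. They were the tropomyosins Tpm1, Tpm2, Tpm3 and Tpm4, the muscle ankyrin repeat gene Ankrd2, the adaptor Sorbs2, transgelin-2 (Tagln2), the myosin light chain gene Myl9 and caldesmon (Cald1). They were picked by name because Tpm2, Ankrd2 and Sorbs2 were lower after Usp8 knock down. The values of those 3 genes are therefore given as a description with no test. The other 6 were joined to them by function with results of these data known.

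Tropomyosins are coiled-coil proteins that lie end to end along the actin filament and set which myosins and severing proteins reach it. Non-muscle cells make them from the same genes as muscle, through other promoters and exons. In osteoclasts they coat actin in the podosome belt, the adhesive ring that seals the cell to bone. Myosin II light chains, caldesmon, calponins and transgelins act on the same filaments.

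RNA was sequenced from RAW264.7 cells, a mouse macrophage line that forms osteoclasts when given RANKL, the osteoclast-inducing cytokine. The shUSP8 group (n = 3) carried a short hairpin against Usp8, which encodes an endosomal deubiquitinating enzyme, and is labelled as a USP8 knock down. The shCtrl group (n = 3) carried a control hairpin and has the genotype label WT. RANKL (50 ng/mL, 4 days) was given to both groups alike, so no library shows undifferentiated cells. How the hairpins were delivered and whether a group was 1 clone or pool was not given in the sources used here.

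Libraries were of even depth, with 19973522 to 20142107 expected counts (estimated fragments) in shUSP8 and 20121644 to 20213939 in shCtrl. Usp8 had 656, 720 and 718 expected counts in shUSP8, against 2785, 2561 and 2645 in shCtrl, and its fitted log2 fold change was -1.999 (SE 0.06) at an edgeR adjusted p of 1.47e-10. Separate cultures are not stated in the labels. The p-values then describe spread among these libraries alone, which may be technical. All 10 macrophage and 11 osteoclast markers listed passed the filter on low counts, of which 6 and 0 were called higher and 3 and 6 lower in shUSP8 (edgeR adjusted p under 0.05), beside 17.8% of all genes called higher and 14.9% called lower. Of 16 smooth muscle and stromal markers 5 passed, and the smooth muscle leiomodin Lmod1 and the stromal proteoglycan Lum were at 0 in all 6 libraries. Summed over the 16 markers, expected counts were 369, 138 and 112 in shUSP8, against 128, 149 and 355 in shCtrl. Desmin (Des) had 235 of these in shUSP8_1, and the collagen gene Col1a1 had 116 in shCtrl_3. The stromal gene Dcn had 29, 15 and 9 counts in shUSP8, against 5, 0 and 3 in shCtrl. Des, Col1a1 and Dcn were named after their values were seen. Mean fragment length, estimated from the count and TPM tables, was 368.7 nt in shUSP8_2 and 290.5 to 309.3 nt in the other libraries.

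Transcripts of striated muscle stood out in shUSP8_1. Summed over 33 sarcomere and muscle marker genes, expected counts were 4489, 292 and 287 in shUSP8_1 to shUSP8_3, against 365, 249 and 787 in shCtrl_1 to shCtrl_3. Of these 33 genes, 25 had their highest count in shUSP8_1 and 6 in shCtrl_3. Acta1, the skeletal muscle actin, had 1077, 1 and 1 counts in shUSP8, against 9, 1 and 29 in shCtrl.

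The fast skeletal myosin Myh1 had 534 counts in shUSP8_1 and 0 in each other library. Troponin T3 (Tnnt3) had 342, 0 and 1 counts in shUSP8, against 1, 0 and 1 in shCtrl. Among the genes highest in shCtrl_3 were cardiac ones, with 176.5 counts of the atrial myosin Myh6 and 73 of the cardiac troponin Tnnt2. The muscle regulator Myod1 was at 0 in all 6 libraries, and Myog had 1 count, in shCtrl_3. Tpm2 and Ankrd2 are themselves expressed in skeletal muscle, so their values are given below with and without shUSP8_1. Acta1, Myh1, Tnnt3, Myh6 and Tnnt2 were named after their values were seen.

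**Figure D1:**
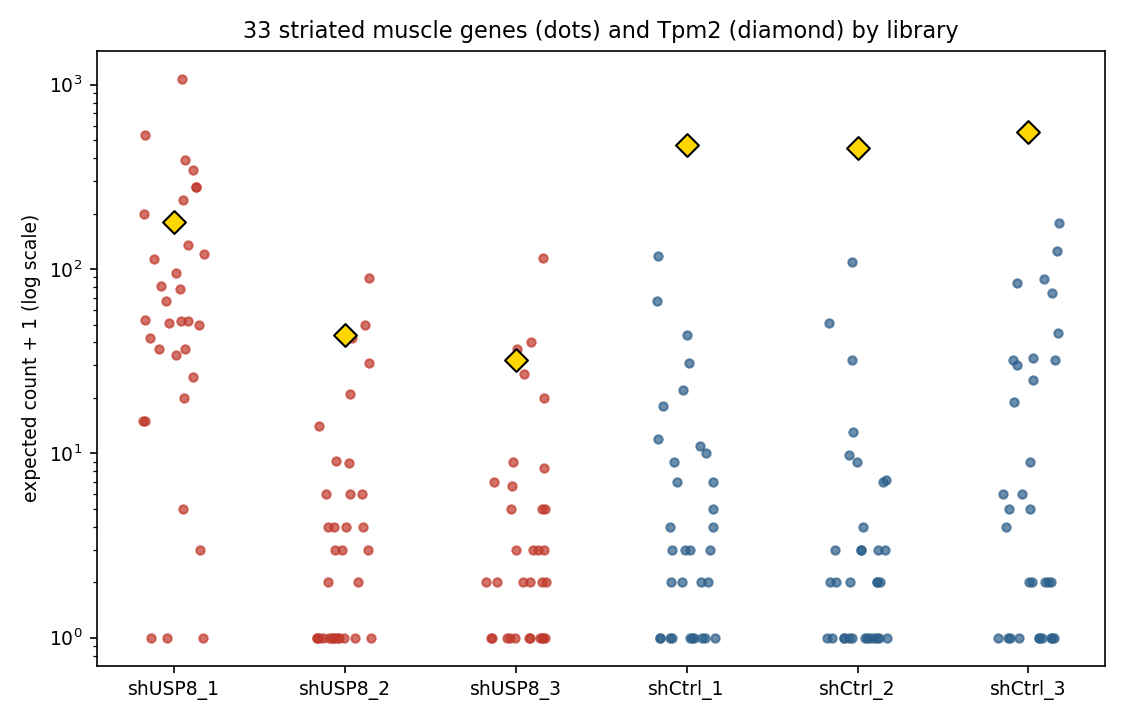
Expected counts plus 1 (log scale) of 33 striated muscle genes (dots) and of Tpm2 (diamond) in each of the 6 libraries. The dots of shUSP8_1 reach 1077 counts and sum to 4489, while Tpm2 lies at 178, 43 and 31 counts in shUSP8 and at 469, 453 and 553 in shCtrl.

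The alternative coding exons of Tpm2 are shown because they separate 2 annotated forms of different length, and transcript length is estimated below. Tpm2 lies on chromosome 4 at 43514711 to 43523765, minus strand (GRCm38), and the annotated forms Tpm2-202 and Tpm2-203 share 7 of 9 coding exons. They differ in exon 6 and in the coding part of exon 9. The Tpm2-202 exon 6 (chr4:43518644-43518719) lies after that of Tpm2-203 (chr4:43519003-43519078) in the direction of transcription. The Tpm2-202 exon 9 (chr4:43515924-43516003) lies before that of Tpm2-203 (chr4:43514782-43514861). In the rat gene, skeletal muscle uses the later of the internal pair and the earlier of the terminal pair, and fibroblasts use the others. The sequences run 5′ to 3′ on the minus strand, from GENCODE M21 transcripts, and capitals mark positions at which the members of a pair differ.
Tpm2-203 exon 6: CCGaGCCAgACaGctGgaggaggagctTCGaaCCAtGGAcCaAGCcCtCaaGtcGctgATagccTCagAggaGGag
Tpm2-202 exon 6: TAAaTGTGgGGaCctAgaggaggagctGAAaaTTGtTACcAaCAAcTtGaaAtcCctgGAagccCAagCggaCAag
Tpm2-203 exon 9: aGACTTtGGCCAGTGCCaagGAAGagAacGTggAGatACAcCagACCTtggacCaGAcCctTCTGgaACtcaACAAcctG
Tpm2-202 exon 9: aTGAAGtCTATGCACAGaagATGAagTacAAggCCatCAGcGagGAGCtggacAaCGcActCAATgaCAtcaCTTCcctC
The exon 6 pair is identical at 41 of 76 positions and the exon 9 pair at 33 of 80. Over its whole length Tpm2-202 has 2098 nt and Tpm2-203 has 1164 nt.

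Tpm2, the beta tropomyosin, was the member with the lowest fitted value and the widest spread. It had 178, 43 and 31 expected counts in shUSP8_1 to shUSP8_3, against 469, 453 and 553 in shCtrl_1 to shCtrl_3. Per length, this was 9.01, 2.79 and 2.07 TPM in shUSP8, against 30.5, 27.6 and 33.6 TPM in shCtrl. TPM, a level corrected for transcript length, allows genes of different length to be compared. The groups did not overlap, and shUSP8_1, the library with the muscle transcripts, was the highest of its group.

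The fitted log2 fold change of Tpm2 was -2.61 (SE 0.65), from edgeR on counts scaled by TMM factors. Without shUSP8_1 it was -3.80 (SE 0.16), and without both shUSP8_1 and shCtrl_3 it was -3.69 (SE 0.14). The difference was thus larger without the muscle-bearing library. The share of the 178 counts that came with the muscle transcripts was not tested. In bulk RNA, fewer cells with a transcript and less of it per cell cannot be told apart, here and for the other genes.

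The other 3 tropomyosins made up most of the tropomyosin RNA and did not pass the test. Tpm1, on chromosome 9 at 67022590 to 67049406 (GRCm38, minus strand), had 5693, 5294 and 5094 counts in shUSP8, against 5256, 5425 and 5326 in shCtrl. The groups overlapped, and shUSP8_1 was the highest of the 6 libraries. Its log2 fold change was -0.06 (SE 0.05; edgeR adjusted p = 0.425), and -0.11 (adjusted p = 0.108) without shUSP8_1. Tpm1 also gives the alpha tropomyosin of striated muscle.

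Tpm4, a tropomyosin of the actin cytoskeleton, had 7693, 7706 and 7421 counts in shUSP8, against 8059, 7845 and 7702 in shCtrl. In CPM, counts scaled to a common library size with TMM factors, this was 369.9 ± 6.76 in shUSP8 and 400.8 ± 6.32 in shCtrl (SD, n = 3 each). The CPM of the groups did not overlap, yet the log2 fold change of -0.12 (SE 0.05) missed the threshold (edgeR adjusted p = 0.0817). The Tpm4 locus is chromosome 8, 72134975 to 72153142 (GRCm38, plus strand). On log2(TPM + 1) Tpm1 was at 0.09, Tpm3 at 0.12 and Tpm4 at 0.02, while on that scale all tested genes had a median of 0.11.

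Tpm3, on chromosome 3 at 90072649 to 90100902 (GRCm38, plus strand), had 5034, 4665 and 5098 expected counts in shUSP8, against 4935, 5018 and 4564 in shCtrl. The groups overlapped, and the log2 fold change was -0.04 (SE 0.06; edgeR adjusted p = 0.635). Tpm3 counts are uncertain because Tpm3-rs7, a retrogene copy on chromosome 14 at 113314608 to 113316754, held more counts than the parent gene. Tpm3-rs7 had 8407, 8533 and 8173 counts in shUSP8, against 8007, 7730 and 7155 in shCtrl. Its log2 fold change was 0.07 (SE 0.05; adjusted p = 0.351). The copy took on average 62.1% of the CPM of the pair, and the pair together was at 647.0 ± 9.50 CPM in shUSP8 and 635.0 ± 26.1 CPM in shCtrl (SD, n = 3 each). CPM do not correct for length, and on TPM the copy took 42.0% on average. The pair was then at 613, 631 and 652 TPM in shUSP8, against 598, 574 and 535 TPM in shCtrl, with no overlap. How shared fragments were divided between Tpm3 and its copy cannot be checked from these tables.

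**Figure D2:**
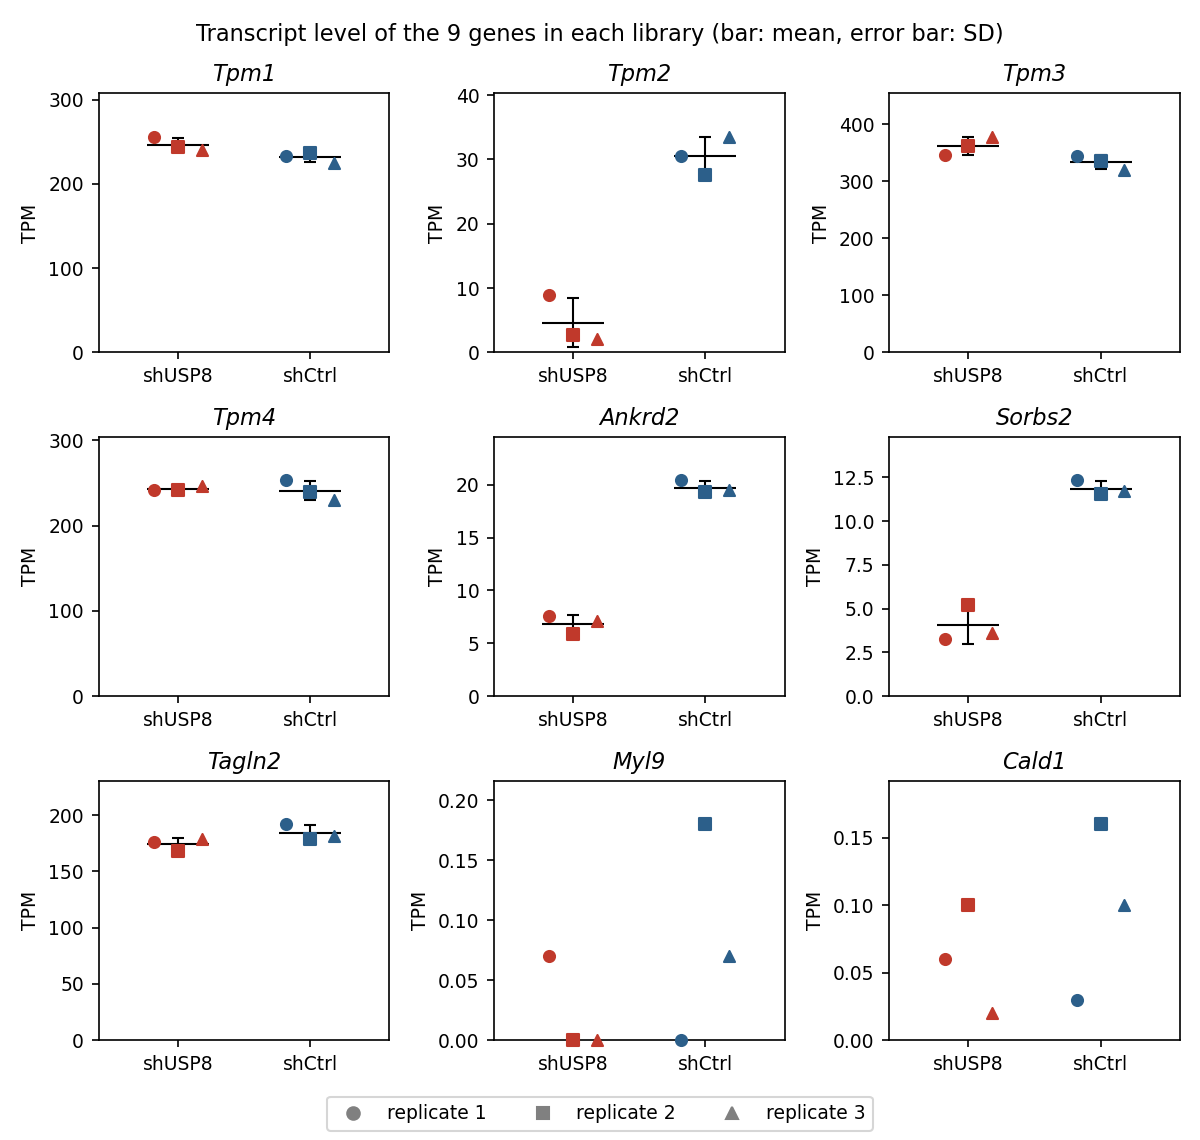
TPM of the 9 genes in each shUSP8 and shCtrl library, with each axis starting at 0 (bar and error bar: mean and SD of 3 libraries, drawn for the 7 tested genes). Tpm2, Ankrd2 and Sorbs2 separate the groups, with Tpm2 at 9.01, 2.79 and 2.07 TPM in shUSP8 against 27.6 TPM or more in shCtrl, while Tpm1, Tpm3 and Tpm4 lie above 200 TPM in both groups.

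Summed over the 4 tropomyosin genes, the pool was 855, 850.0 and 867 TPM in shUSP8, against 862, 839.7 and 809.7 TPM in shCtrl. The groups overlapped, and the means of 857 ± 9.0 TPM in shUSP8 and 837 ± 26.2 TPM in shCtrl (SD, n = 3 each) gave a two-sided exact permutation p = 0.3, where 0.1 is the smallest that 3 against 3 allows. The sign depended on the scale. The difference was 20.2 on the deposited TPM, which carry no scaling between libraries beyond a common total. It was -69.4 on TMM-scaled CPM, where the groups did not overlap (exact permutation p = 0.1). On TPM scaled by median-of-ratios factors, which set libraries level at their typical gene, it was -57.7. The sum includes Tpm2, chosen for its fall, at a mean of 4.09 CPM in shUSP8 and 25.1 CPM in shCtrl. That fall is part of each difference and of the p-values, so nothing is read from them. The pool without Tpm2 was not tested. Because the sign differed between scales, no direction is given for the pool.

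Within the pool, Tpm3 ranked first in every library, at 42.3% ± 1.53 in shUSP8 and 39.9% ± 0.288 in shCtrl (exact permutation p = 0.1). Tpm1 held 28.8% ± 1.17 in shUSP8 and 27.7% ± 0.562 in shCtrl (exact permutation p = 0.3). Tpm4 held 28.4% ± 0.0758 in shUSP8 and 28.8% ± 0.489 in shCtrl (exact permutation p = 0.1; SD, n = 3 each throughout). In shUSP8 the Tpm4 shares lay within the wider range of the Tpm1 shares, and in all 3 shCtrl libraries Tpm4 was above Tpm1. Adjusted over these 3 tests the p-values were 0.3 for Tpm1 and 0.15 for Tpm3 and Tpm4. Tpm2 held 1.05, 0.328 and 0.239% in shUSP8, against 3.54, 3.29 and 4.14% in shCtrl. Tpm2 was chosen for its fall, and a smaller Tpm2 share raises the other shares together. The tests of the Tpm1, Tpm3 and Tpm4 shares thus draw in part on that choice, and nothing is read from them. Shares without Tpm2 were not tested.

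Ankrd2, a stretch-responsive protein of the sarcomere and nucleus in muscle, was low but detected throughout. It had 104, 77 and 92 counts in shUSP8, against 278, 272 and 280 in shCtrl. Per length these were 7.55, 5.91 and 7.11 TPM in shUSP8, against 20.4, 19.3 and 19.45 TPM in shCtrl. The groups were well apart, and the fitted log2 fold change was -1.67 (SE 0.11).

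Without shUSP8_1 the Ankrd2 value was -1.78 (SE 0.12), and without both muscle-bearing libraries -1.76 (SE 0.13). Its relative Ankrd23, another muscle ankyrin repeat gene, was highest in shUSP8_1, with 145, 32 and 41 counts in shUSP8, against 34, 18 and 25 in shCtrl (log2 fold change 1.43, SE 0.76; edgeR adjusted p = 0.228). Ankrd1, the cardiac member of that family, had 0 counts in each shUSP8 library, against 1, 0 and 4 in shCtrl.

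The Ankrd2 locus is chromosome 19, 42036000 to 42045110 (GRCm38, plus strand). The 100 bases before its RefSeq start (GRCm38.p6, chr19:42035927-42036026, plus strand) are shown because Ankrd2 is the 1 lower member whose window holds the TATA motif. Capitals mark a TATAAA match, whose first base lies 29 bases before the RefSeq start. The stretch runs past the locus start of 42036000 in GENCODE, which lies within the match, so that distance holds for the RefSeq start alone.
Ankrd2 upstream: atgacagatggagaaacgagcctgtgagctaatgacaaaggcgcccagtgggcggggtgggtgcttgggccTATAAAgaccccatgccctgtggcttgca
RefSeq windows from 250 bases before to 50 after a start were found for 9 of 9 members, 13 windows in all. TATAAA, searched on both strands, was in 2 of the 13 windows (Ankrd2 and Cald1) and in 13.6% of all 32851 windows. The CArG box, the site of serum response factor, was in 1 of 13 (Myl9) and in 1.63% of all windows. CATTCC, the core bound by TEAD factors, was in 3 of 13 (Tpm1, Tagln2 and Cald1) and in 14.7% of all. TGANTCA, the AP-1 site, was in 1 of 13 (Cald1) and in 7.81% of all. A match describes letters only.

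Sorbs2, an adaptor that links actin to signalling kinases and to Z-discs in muscle, had 141, 156 and 142 counts in shUSP8, against 437, 391 and 362 in shCtrl. The highest shUSP8 library was far below the lowest shCtrl library. Per length these were 3.25, 5.23 and 3.64 TPM in shUSP8, against 12.3, 11.6 and 11.7 TPM in shCtrl. The log2 fold change was -1.504 (SE 0.09), and -1.48 (SE 0.11) without shUSP8_1. With effective-length offsets, which correct each library for the mean transcript length behind a gene's count, it was -1.70 (SE 0.16). Sorbs2 spans chromosome 8 from 45507788 to 45827906, plus strand (GRCm38), with 37 transcripts in the deposited table.

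Tagln2, an actin-binding relative of the smooth muscle protein SM22 that white blood cells express, fell slightly. It had 3641, 3237 and 3369 counts in shUSP8, against 3930, 3758 and 3835 in shCtrl, and the groups did not overlap. The log2 fold change was -0.24 (SE 0.06; edgeR adjusted p = 0.0068), or 1.18-fold lower. On log2(TPM + 1) it was -0.08 and the call was lost (limma adjusted p = 0.369). Per length the groups overlapped, at 176, 168 and 179 TPM in shUSP8, against 192, 179 and 182 TPM in shCtrl. On log2(TPM + 1) the median over all tested genes was 0.11. With effective-length offsets the log2 fold change of Tagln2 was -0.21 and the call was kept (edgeR adjusted p = 0.0202). The Tagln2 locus is chromosome 1, 172500047 to 172507380 (GRCm38, plus strand).

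Myl9, the regulatory light chain of smooth muscle myosin, and Cald1, which holds tropomyosin-coated actin away from myosin, were not expressed at a level these libraries can compare. Myl9 had 1, 0 and 0 counts in shUSP8, against 0, 1 and 1 in shCtrl. A count of 0 allows up to 3 counts, or 0.148 to 0.15 CPM on library totals without TMM factors, for counting error only. Cald1 had 4, 1 and 1 counts in shUSP8, against 2, 6 and 3 in shCtrl. Neither passed the filter on low counts, and no fold change is given. Myl9 lies on chromosome 2 at 156775420 to 156781658 and Cald1 on chromosome 6 at 34598500 to 34775473, both on the plus strand (GRCm38).

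Of the 9 members 7 passed the filter on low counts. Leaving aside the 3 chosen for their fall, 1 of the other 4 (Tagln2) was called lower at an edgeR adjusted p under 0.05, beside 14.9% of all 12440 genes tested. In CPM, 2 of these 4 (Tpm4 and Tagln2) had groups that did not overlap, both lower in shUSP8, beside 23.1% of all genes tested. With so few genes, nothing is read from either count.

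**Figure D3:**
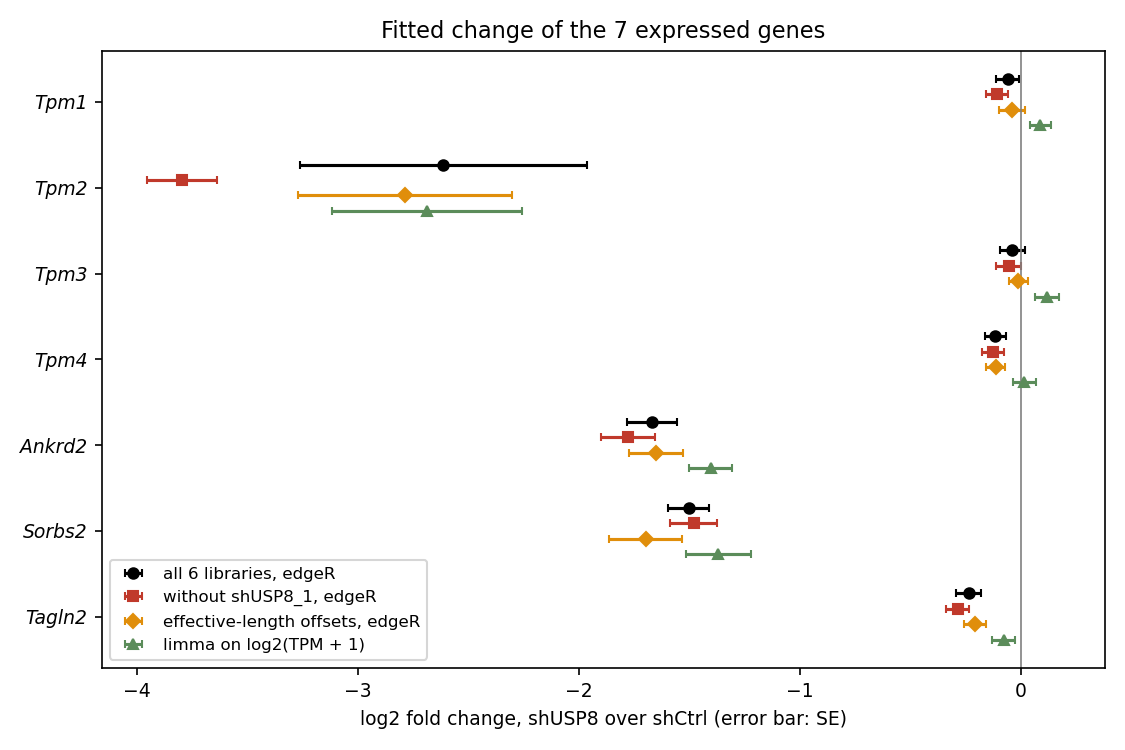
Fitted log2 fold change of shUSP8 over shCtrl with its SE for the 7 tested genes, from all 6 libraries, without shUSP8_1, with effective-length offsets and on log2(TPM + 1). Tpm2 is at -2.61 with all libraries and at -3.80 without shUSP8_1. Ankrd2 runs from -1.78 to -1.40 and Sorbs2 from -1.70 to -1.37 over these fits, and Tpm1, Tpm3 and Tpm4 lie close to 0.

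The ratio of expected count to TPM is proportional to the effective length of a gene, which moves with the mix of its transcripts. A straight line through 820 genes with a single transcript turned it into an implied mean transcript length for each library, a readout not used to choose the genes. For Tpm2 it was 1450, 1234 and 1226 nt in shUSP8, against 1203, 1233 and 1216 nt in shCtrl. Only shUSP8_1 stood apart, with a longer mean. The annotated forms longer than this mean are Tpm2-202 (2098 nt), Tpm2-201 (2175 nt) and Tpm2-205 (1545 nt), and a gene-level mean does not say which of them added to it. Every other library was near the 1164 nt of Tpm2-203. With 31 counts in the lowest library, Tpm2 was below the 50 required for a test. Its group means were 1303 nt in shUSP8 and 1217 nt in shCtrl, and without shUSP8_1 they differed by 12.9 nt.

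In shUSP8_1 the Tpm2 count and implied length were the highest of the group, as were the counts of most of the muscle genes. The part of the muscle transcripts in this was not tested. Sorbs2 was the most variable, at 2838, 2044 and 2710 nt in shUSP8, against 2369, 2220 and 2019 nt in shCtrl, and the groups overlapped (exact permutation p = 0.3). The shUSP8_2 library, with the longest fragments, had the lowest Sorbs2 value of its group.

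Tpm1 was at 1599 ± 11.7 nt in shUSP8 and 1611 ± 7.06 nt in shCtrl (SD, n = 3 each; exact permutation p = 0.3). Ankrd2 was at 1099 ± 0.805 nt in shUSP8 and 1099.9 ± 0.395 nt in shCtrl (SD, n = 3 each), next to the 1100 nt of its form Ankrd2-201. Tpm4 was at 2157 nt in both groups. Ankrd2 thus lay close to an annotated length in every library. Of the 4 Tpm4 transcripts in the deposited data, GENCODE M21 held 2, the longer of 2128 nt. Tpm4 therefore showed agreement among libraries, not the accuracy of the lines. Over the 6 genes tested (Tpm1, Tpm3, Tpm4, Ankrd2, Sorbs2 and Tagln2), exact permutation p-values ran from 0.3 to 1 and adjusted p-values from 0.9 to 1. With 3 libraries against 3 no p could go below 0.1, so these tests say nothing about whether the transcript mix was stable.

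**Figure D4:**
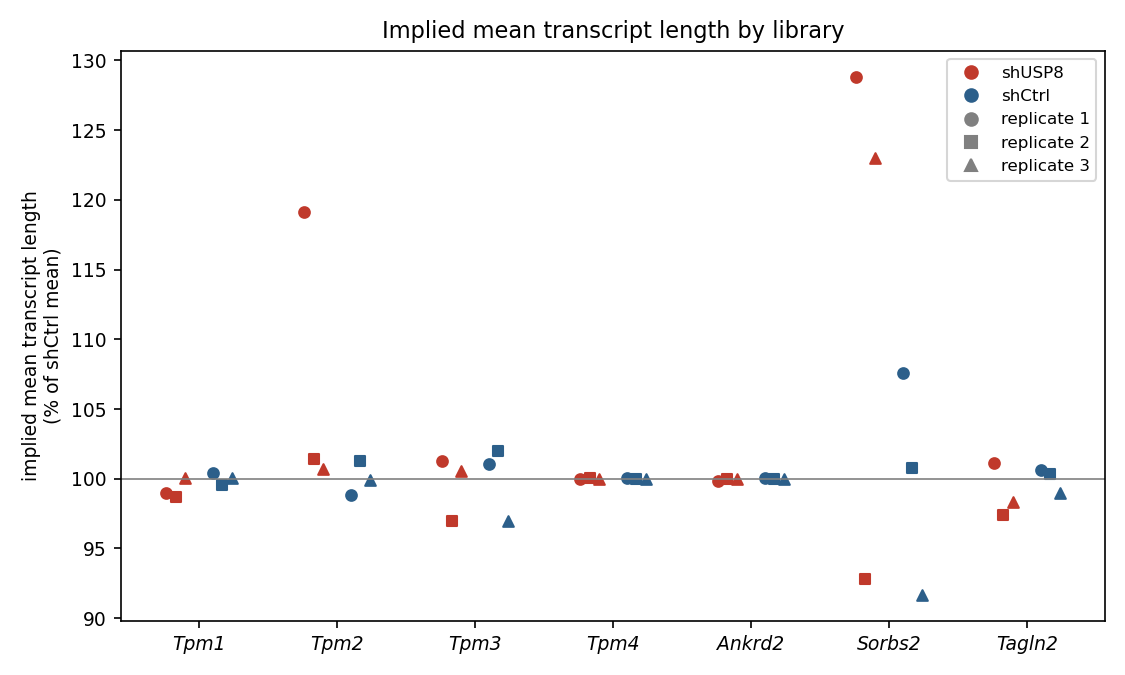
Implied mean transcript length of 7 genes in each library, as a percentage of the shCtrl mean. Tpm2 in shUSP8_1 (1450 nt) stands above the other 5 libraries (1203 to 1234 nt), Sorbs2 spreads from 2019 to 2838 nt, and Tpm4 and Ankrd2 stay on the line.

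Among 11 family relatives of the 9 genes, 5 were tested, of which 2 fell, beside 14.9% of all genes called lower. Cnn2, the calponin of non-muscle cells, fell to 69, 70 and 67 counts in shUSP8, against 218, 207 and 278 in shCtrl (log2 fold change -1.84, SE 0.14; edgeR adjusted p = 7.96e-07). Without both muscle-bearing libraries it was at -1.69 (adjusted p = 2.89e-06). Myl12a, the non-muscle counterpart of Myl9, fell to 75.7 ± 3.66 CPM in shUSP8, against 94.2 ± 4.17 CPM in shCtrl (SD, n = 3 each; log2 fold change -0.31, adjusted p = 0.00103). Its near-identical neighbour Myl12b was at -0.06 (adjusted p = 0.423), so reads shared between them leave both uncertain.

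The smooth muscle forms were at or near the floor. Tagln had 8, 9 and 5 counts in shUSP8, against 6, 7 and 13 in shCtrl, and Cnn1 had 1 count in all.

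Among 15 genes of non-muscle myosin II and its regulators, 13 were tested, of which 3 rose and 2 fell. Of all genes tested 17.8% were called higher and 14.9% lower, so nothing is read from these counts. Myh9, the main myosin II heavy chain of blood cells, did not pass the test (946.3 ± 59.7 CPM in shUSP8, 962.9 ± 4.98 CPM in shCtrl; log2 fold change -0.02, adjusted p = 0.775). Myh14, the third non-muscle heavy chain, rose to 108, 109 and 105 counts in shUSP8, against 22, 32 and 19 in shCtrl (log2 fold change 2.07, SE 0.19; edgeR adjusted p = 4.74e-06). Both groups were tight, though its level stayed low at 1.22 to 1.84 TPM in shUSP8.

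Myl6, the essential light chain of these myosins, fell to 5442, 3955 and 5012 counts in shUSP8, against 8022, 7459 and 7920 in shCtrl (log2 fold change -0.77, SE 0.12; edgeR adjusted p = 0.00292). Rhob, a small GTPase upstream of myosin, rose to 32.4 ± 0.379 CPM in shUSP8, against 20.2 ± 1.42 CPM in shCtrl (log2 fold change 0.68, adjusted p = 1.16e-05). Cdc42bpb, the myosin-directed kinase MRCK beta, rose by a log2 fold change of 0.21 (edgeR adjusted p = 0.0152), a call lost without shCtrl_1 (adjusted p = 0.0581) or shCtrl_3 (0.0672). Ppp1cb, the myosin phosphatase catalytic subunit named after its values were seen, was the other member called lower (-0.18).

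Of 17 actins and filament proteins listed, 15 were tested, 7 fell and 1 rose, beside 14.9% of all genes called lower and 17.8% called higher. The median log2 fold change of those tested was -0.18, against -0.005 over all genes tested. Actg1, gamma actin, fell to 40614, 42798 and 39191 counts in shUSP8, against 58067, 60471 and 68315 in shCtrl (log2 fold change -0.68, SE 0.07; edgeR adjusted p = 1.87e-05). Actb, beta actin, named after its value was seen, was at 0.05 (adjusted p = 0.503). Actin copies elsewhere in the genome make both counts uncertain.

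Actn4, the crosslinker alpha-actinin-4, fell to 833.8 ± 27.1 CPM in shUSP8, against 1295 ± 7.70 CPM in shCtrl (SD, n = 3 each; log2 fold change -0.64). The actin-severing proteins Dstn and Cfl1, which compete with tropomyosins for filaments, fell by 0.69 (SE 0.06) and 0.42 (SE 0.06) on the log2 scale. These 3 calls held in each of 15 alternatives. Tmod1, the pointed-end cap that binds tropomyosin, was called lower as well (-0.27, SE 0.06), and Tmod3, the widely expressed form, was at -0.04 (edgeR adjusted p = 0.619). Both Tmod genes were named after their values were seen. On log2(TPM + 1), 4 genes of this list fell and 0 rose. On that scale 447 of all 15647 genes tested fell and 2065 rose. With effective-length offsets 7 of the list fell and 0 rose, beside 1226 and 1511 of all 12379 genes.

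Of 18 genes listed for serum response factor, its MRTF partners and their targets, 9 were tested, 4 rose and 1 (Actg1) fell, beside 17.8% of all genes called higher and 14.9% called lower. Srf rose to 66.9 ± 0.811 CPM in shUSP8, against 57.9 ± 1.31 CPM in shCtrl (SD, n = 3 each; log2 fold change 0.21, SE 0.05; edgeR adjusted p = 0.00672), a call that limma on log2(TPM + 1) (adjusted p = 0.0624) or log2(TPM + 0.1) (0.0595) and the offsets for effective length (0.182) did not give. The early response genes Egr1 and Junb rose by log2 fold changes of 0.54 (SE 0.06) and 0.26 (SE 0.05). Mrtfa, the actin-regulated coactivator, named after its value was seen, was at 0.02 (adjusted p = 0.819).

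**Figure D5:**
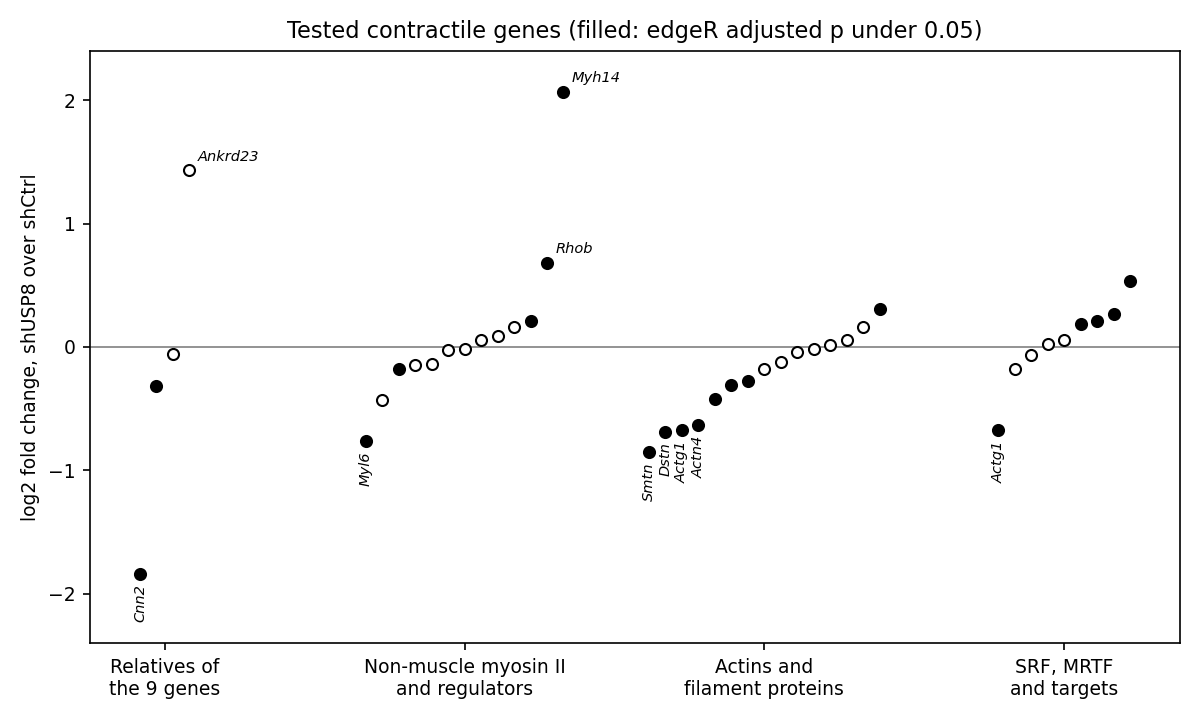
Log2 fold change of shUSP8 over shCtrl for tested genes of 4 lists, each dot a gene (filled: edgeR adjusted p under 0.05; genes beyond 0.6 in either direction are named). Cnn2 (-1.84) lies lowest and Myh14 (2.07) highest, and 7 of 15 actin filament genes are called lower.

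Of the 33 striated muscle genes 9 passed the filter on low counts, 1 rose and 1 fell, near the 17.8% and 14.9% of all genes called in those directions. Myh3, the embryonic myosin heavy chain, had 25, 30 and 26 counts in shUSP8, against 4, 1 and 1 in shCtrl (log2 fold change 3.61, SE 0.43; edgeR adjusted p = 5.01e-05). Unlike Myh1, it was as high in the shUSP8 libraries without the muscle transcripts as in shUSP8_1. Its value was 3.66 without shUSP8_1 and 4.52 without shCtrl_1, and a count of this size in shCtrl leaves the fold loosely set. Tnnc1, the slow troponin C, had 51, 41 and 39 counts in shUSP8, against 66, 50 and 87 in shCtrl (log2 fold change -0.70, SE 0.22; adjusted p = 0.0317). The Tnnc1 call was lost without shUSP8_2 (adjusted p = 0.0667), shUSP8_3 (0.11), shCtrl_1 (0.0697) or shCtrl_3 (0.16), with DESeq2 (0.102), with effective-length offsets (0.0862) and on log2(TPM + 1) (0.125). Smtn, the smooth muscle protein smoothelin, fell to 34, 46 and 32 counts in shUSP8, against 56, 64 and 73 in shCtrl (log2 fold change -0.85, SE 0.20; edgeR adjusted p = 0.0063). The Smtn call was lost with limma on log2(TPM + 1) (adjusted p = 0.0564) and on log2(TPM + 0.1) (0.0505).

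The genes most like the 3 lower members were sought by the root mean square difference of centred log2 CPM over the 6 libraries, restricted to genes averaging 3 or more on that scale. For Ankrd2 they were Rgs16 (0.178), Sorbs2 (0.204) and Usp8 itself (0.235). For Sorbs2 they were H2bc21 (0.163), Kbtbd11 (0.181) and Sema7a (0.187). For Tpm2 the nearest were Tubb2b (0.903), Usp8 (0.944) and Rgs16 (0.948), all much farther away than for the other 2. The measure was computed over about the same 8925 genes for each, and the 6 libraries share the group difference that chose the 3 members.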

How the data were processed

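Expected counts, estimates of fragments per gene, were deposited by the authors with no normalization, and 7.16% were not whole. The deposited TPM divide each by effective length and sum to the same total per library. RSEM, DESeq2 (1.28.1) and mm10 are listed, without roles, per the submitters' processing notes. No source used here gave the aligner. Columns named WT were taken as shCtrl and KO as shUSP8, the only other genotype label, by the number in the title. The Usp8 counts check the groups, not the numbers within a group. GENCODE M21 (GRCm38) held 141374 of 142604 transcripts (99.14%), matched without version.

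Rounded expected counts of 55291 genes were tested in edgeR 4.0.16 (R 4.3.3): TMM, filterByExpr (minimum count 10, total 15), robust quasi-likelihood F test, Benjamini-Hochberg over 12440 genes, called under 0.05. SE is the absolute log2 fold change over the square root of F. CPM use TMM factors, with prior count 2 for log2 CPM. Library lines for implied length are Theil-Sen fits through genes with 1 transcript and at least 50 counts. The pipeline was tested on simulated data. The members and lists were chosen with earlier results of these data known. Genes named were all members, up to 4 called genes of each list by smallest p, and 3 nearest genes for Tpm2, Ankrd2 and Sorbs2. The result of 1 listed gene is not reported here. Tpm3-rs7, Ankrd1, Ankrd23, Myl12b, Tagln, Cnn1 and Myh9 were named after their values were seen. Alternatives covered RLE factors, library totals, no filter, DESeq2 1.42.0, limma 3.58.1 on log2(TPM + 1) and log2(TPM + 0.1) with a mean of at least 0.1 TPM, effective-length offsets, a block for replicate number and leaving out each library. Leaving out both muscle-bearing libraries and adding Tpm3-rs7 were chosen after seeing the data. Python 3.11.15, scipy 1.17.1 and matplotlib 3.10.9 were used.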

Additional observations from a re-analysis of the deposited data

How the results depend on the processing

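The signs of Tpm2 (-3.80 to -2.22), Ankrd2 (-1.78 to -1.40), Sorbs2 (-1.70 to -1.37) and Tagln2 (-0.29 to -0.08) held in each of 15 alternatives. Tpm1 turned positive with library totals (0.0137), log2(TPM + 1) (0.0889) and log2(TPM + 0.1) (0.0892), Tpm3 likewise (0.0347, 0.119 and 0.119), and Tpm4 on both TPM scales (0.0156 and 0.0157). Tpm3 ranged over -0.06997 to 0.00464 with a library left out, positive without shUSP8_2. None of these passed the test. Over all genes 1859 fell, against 1172 with library totals, 447 on log2(TPM + 1), 452 on log2(TPM + 0.1), 1226 with effective-length offsets and 1239 to 2077 with a library left out. Higher genes made up 54.4% of calls, 72.6% when scaled by library totals and 82.2% on either TPM scale. Of the 39 tested genes in the 4 contractile lists 11 fell and 9 rose, beside 14.9% of all genes called lower and 17.8% called higher. There were 7 falls on log2(TPM + 1) and 7 on log2(TPM + 0.1), beside 447 and 452 of all 15647 genes. With a library left out there were 10 to 12 falls and 6 to 10 rises. The lists were chosen with earlier results of these data known, so nothing is read from these counts. The pool difference of 20.2 TPM was -69.4 on CPM (exact permutation p = 0.1) and -57.7 with median-of-ratios factors on TPM. It was 54.5 with Tpm3-rs7 added and 6.51 to 32.6 with a library left out. The groups separated on CPM, lower in shUSP8, and also with Tpm3-rs7 added, higher in shUSP8. Each of these sums includes Tpm2, which was chosen for its fall. The group difference in implied length of Ankrd2 was -0.45 nt, 0.53 nt with the line through genes of 1000 to 5000 nt and -0.706 to 0.00949 nt with a library left out; for Tpm3 it was -21.9 to 10.2 nt and for Tpm4 -0.42 to 0.69 nt. The cause of these shifts was not tested. Deviations from the group means correlated at -0.12, 0.01 and -0.15 between libraries of equal replicate number. Between libraries of unlike number they correlated at -0.11 to 0.17. With so few libraries, and numbers within a group not checked, these values cannot tell whether equal numbers are pairs. With the replicate block 2021 genes rose, 1690 fell, and Tpm2 was at -2.75 and Tagln2 at -0.24 (edgeR adjusted p = 0.00916). At these depths Myl9 and Cald1 could not be compared.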
